A study of Mus musculus with 6 samples.

Results

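The genes examined were the matrix metalloproteinases (Mmp), the Adamts proteases, the related Adamtsl genes and the tissue inhibitors of metalloproteinases (Timp) of mouse dermal fibroblasts. Members were taken by their gene symbols, and this choice was made with earlier results of these data known. Of the 41126 genes in the deposited table of all genes 51 matched, of which 23 were Mmp, 19 Adamts, 5 Adamtsl and 4 Timp genes. Their transcripts were counted by RNA-seq, the sequencing of cDNA made from RNA, in 3 control and 3 gain of function (GOF) cultures of primary ventral dermal fibroblasts from mice at P4 (postnatal day 4) on a mixed CD1 and C57Bl6 background. GOF cultures were AdCre; Ctnnb1 delta ex3/+, so that Cre, delivered by an adenovirus, removed an exon of Ctnnb1 and left a stabilized β-catenin, the effector of canonical Wnt signaling. Control cultures received AdGFP, an adenovirus carrying GFP, so β-catenin and the virus used both differed between the groups. The labels give the controls as +/+ while the study's text describes the same allele in them, and the labels' treatment protocol names adCre (366 to 500 MOI for 6 h) for every culture. The study's text gives 366 to 500 MOI for the Cre virus and 366 MOI for the GFP virus, so the dose may have differed as well. Each culture was grown from a single animal, and the 6 cultures came from 4 animals: Control replicate 0 and GOF replicate 2 shared an animal, as did Control replicate 2 and GOF replicate 0.

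Mmp enzymes are zinc-dependent proteases, secreted as inactive proenzymes or held at the cell surface, that cut collagens and other proteins of the extracellular matrix. Adamts enzymes are secreted relatives with thrombospondin repeats, several of which cut large proteoglycans such as versican or trim procollagens, while Adamtsl proteins lack the protease domain and associate with the fibrillin microfibrils of the matrix. Timp proteins bind the active site of these enzymes and block it, and in the dermis fibroblasts make both the matrix and much of the machinery that turns it over.

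The libraries held 35980831 to 42834467 fragments. The level of Ctnnb1 over the whole gene, which cannot read the loss of 1 exon, was 267 ± 16.3 FPKM (fragments per kilobase of transcript, scaled to library size; mean ± SD, n = 3) in controls and 263 ± 28.8 FPKM in GOF, whereas Axin2, a Wnt feedback gene, was 0.152 ± 0.0218 FPKM against 17.5 ± 2.66 FPKM. All 7 dermal fibroblast markers (Col1a1, Col1a2, Dcn, Lum, Pdgfra, Thy1 and Vim) exceeded 1 FPKM, with a summed level of 2985 to 3775 FPKM in controls and 2454 to 2974 FPKM in GOF. The sum joins opposite changes. Every GOF library lay below every control for Col1a2 and for Dcn (982 to 1175 FPKM in controls, 251 to 450 FPKM in GOF). For Vim every GOF library lay above (719 to 866 FPKM in controls, 1204 to 1506 FPKM in GOF), and Col1a1, Lum, Pdgfra and Thy1 overlapped. Summed keratinocyte and neutrophil markers stayed under 0.55 FPKM in every library, macrophage markers summed to 10.8 to 19.4 FPKM in controls and 8.6 to 24.9 FPKM in GOF, and skeletal muscle markers to 23.3 to 27.4 FPKM in controls and 138 to 173 FPKM in GOF. Of the latter, Acta1 was at 22.7 to 26.4 FPKM in controls and 137 to 171 FPKM in GOF, Des did not exceed 1.28 FPKM in any library, and Myod1 and Myog did not exceed 0.131 FPKM. Pericyte and smooth muscle markers, chiefly Acta2, summed to 1568 to 2183 FPKM in controls and 1804 to 3379 FPKM in GOF. Adipocyte markers, chiefly Fabp4, summed to 7.18 to 8.91 FPKM in controls and 1.8 to 3.17 FPKM in GOF. Endothelial markers summed to 2.79 to 3.4 FPKM in controls and 2.36 to 4.17 FPKM in GOF, and Schwann cell and melanocyte markers to 0.751 to 4.24 FPKM and 0.841 to 3.79 FPKM. Of the endothelial markers, Kdr went from 0.355 to 0.984 FPKM in controls to 1.72 to 2.7 FPKM in GOF. Tek went from 1.86 to 2.11 FPKM to 0.18 to 0.769 FPKM, and Pecam1 and Cdh5 did not exceed 0.403 FPKM. Of the macrophage markers, Csf1r was 1.05 to 1.46 FPKM in controls and 3.38 to 4.79 FPKM in GOF, and the others overlapped. The part of these markers in the results on proteases was not tested. In such bulk cultures, fewer cells of a type and less RNA per cell cannot be told apart.

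Both stromelysins, Mmp3 and Mmp10, together with Mmp15, Adamts8 and Timp3, were up-regulated in GOF, while 6 Adamts genes (Adamts2, Adamts5, Adamts6, Adamts7, Adamts10 and Adamts15) and 2 Adamtsl genes (Adamtsl1 and Adamtsl2) were down-regulated. A gene was called when edgeR's quasi-likelihood test gave a Benjamini-Hochberg adjusted p under 0.05 over all genes tested and the fold change was over 2. After a filter on low counts 39 of the 51 members were tested, and the other 12 (Mmp1a, Mmp1b, Mmp7, Mmp9, Mmp20, Mmp21, Mmp25, Adamts13, Adamts16, Adamts18, Adamts19 and Timp4) were too low. Of the 39, 5 (12.8%) were called higher in GOF, against 6.69% of the 15462 genes tested, and 8 (20.5%) were called lower, against 5.64%. These counts include Adamts8 (2, 5 and 3 fragments in controls, 88, 89 and 54 in GOF), which passed the filter only through its GOF libraries. They also include Adamtsl2 (72, 223 and 198 fragments in controls, 11, 6 and 18 in GOF), which passed mainly through its controls. The tests of these genes are therefore not independent of the filter, which was the same for all genes. The adjusted p alone was passed by 7 members in the higher direction (17.9%, against 11.1% of all genes) and by 9 in the lower direction (23.1%, against 10.2%). In 8 members (20.5%) every GOF library lay above every control library, and in 11 (28.2%) every GOF library lay below, against 20.3% and 19.2% of all genes. The median fitted log2 fold change (GOF over control) was -0.12 over the 39 members and -0.02 over all genes tested. By family the median was 0.24 for the 16 Mmp genes tested, -0.46 for the 15 Adamts genes, -1.76 for the 5 Adamtsl genes and 0.96 for the 3 Timp genes.

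**Figure D1:**
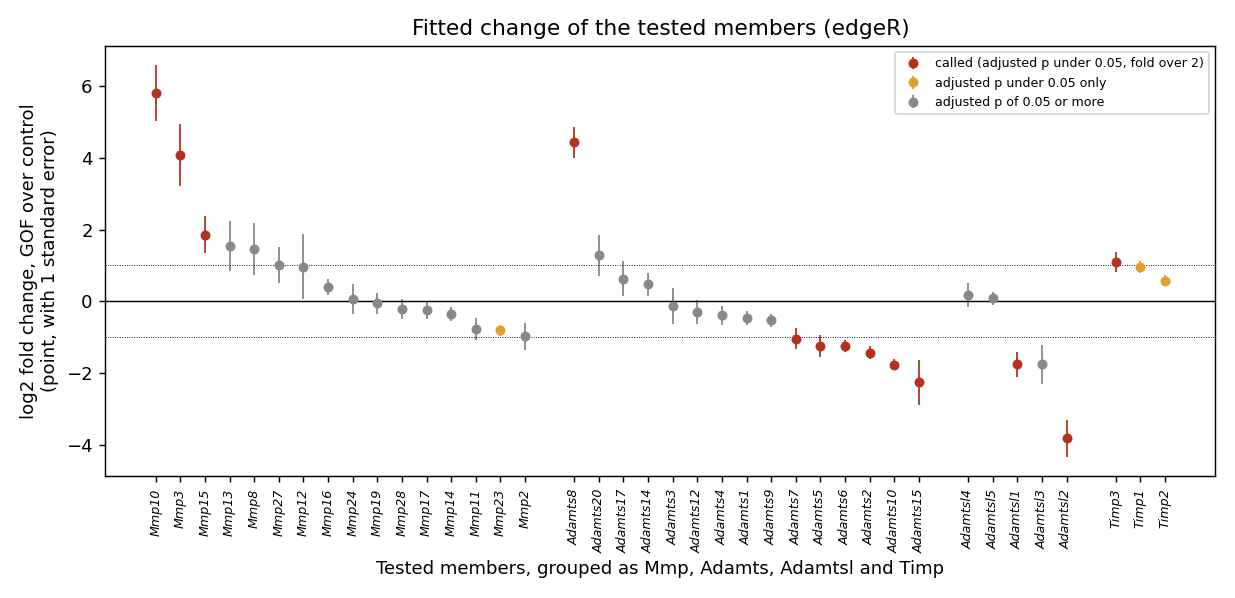
Fitted log2 fold change (edgeR, GOF over control) of the 39 members tested, with bars of 1 standard error, grouped as Mmp, Adamts, Adamtsl and Timp, and dotted lines at a fold change of 2. Called members reach from 5.81 for Mmp10 to -3.82 for Adamtsl2, and the 3 Timp genes all lie above 0.

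Of the genes called, Mmp3 and Mmp10 are neighbours in a cluster of 10 Mmp genes on chromosome 9 (GRCm38, chr9:7272514-7699585, 427.1 kb), which runs Mmp13, Mmp12, Mmp1b, Mmp3, Mmp1a, Mmp10, Mmp8, Mmp27, Mmp20 and Mmp7. The 250 bases before their annotated starts (RefSeq, GRCm38.p6, plus strand) are shown because these are the genes of the cluster that were called. Capitals mark TGAGTCA, the letters bound by AP-1 dimers of Fos and Jun proteins, and, in Mmp10, CTTTGTA, a TCF/LEF motif, which is bound by the DNA-binding partners of β-catenin. The first lies at chr9:7445572-7445821 and the second at chr9:7502092-7502341.
Mmp3: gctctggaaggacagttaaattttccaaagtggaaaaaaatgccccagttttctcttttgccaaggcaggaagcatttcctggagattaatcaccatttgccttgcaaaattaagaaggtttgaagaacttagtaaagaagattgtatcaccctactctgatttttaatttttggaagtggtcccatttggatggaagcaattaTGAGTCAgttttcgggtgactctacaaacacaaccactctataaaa
Mmp10: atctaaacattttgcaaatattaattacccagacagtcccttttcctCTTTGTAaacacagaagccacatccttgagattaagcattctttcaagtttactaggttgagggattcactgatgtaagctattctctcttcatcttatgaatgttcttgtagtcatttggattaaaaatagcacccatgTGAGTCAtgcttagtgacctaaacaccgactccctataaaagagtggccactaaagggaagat

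AP-1 letters were searched as TGAGTCA on both strands, and TCF/LEF letters as any of CTTTGAA, the variant CTTTGAT, the variant CTTTGTA and the variant CTTTGTT on both strands, in windows from 250 bases before to 50 bases after the start. RefSeq gave 36 of the 51 members at least 1 window (39 windows in all). The other 15 had no window and were not searched. Among them were the called genes Adamts5, Adamts6, Adamts7, Adamts8, Adamts10, Adamts15 and Adamtsl1. AP-1 letters were found in windows of 7 of the 10 cluster genes and of 0 of the other 26 members with a window, against 5.95% of all 27025 genes with a window. TCF/LEF letters were found for 5 of the 10 cluster genes and 2 of the other 26 members with a window, against 18.9% of all genes with a window. These matches are a description of letters and carry no test. The 7 AP-1 matches with 12 bases on either side, on the strand of each gene and in the order of the cluster, are shown to compare their flanks.
Mmp13: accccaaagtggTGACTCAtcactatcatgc
Mmp12: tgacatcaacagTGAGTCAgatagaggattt
Mmp1b: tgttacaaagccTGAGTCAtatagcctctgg
Mmp3: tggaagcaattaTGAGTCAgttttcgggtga
Mmp1a: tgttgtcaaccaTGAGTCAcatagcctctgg
Mmp10: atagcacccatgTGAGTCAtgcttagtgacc
Mmp7: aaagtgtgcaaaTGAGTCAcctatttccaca
Their first bases lay between 35 (Mmp13) and 93 (Mmp1b) bases before the annotated start, that of Mmp3 46 bases and that of Mmp10 63 bases before it. The match of Mmp13 is on the opposite strand, so it reads TGACTCA. Mmp7, which was not tested, also carried AP-1 letters 63 bases before its start, whereas the windows of Mmp8, Mmp27 and Mmp20 held none. Called and uncalled genes of the cluster alike carried the letters.

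**Figure D2:**
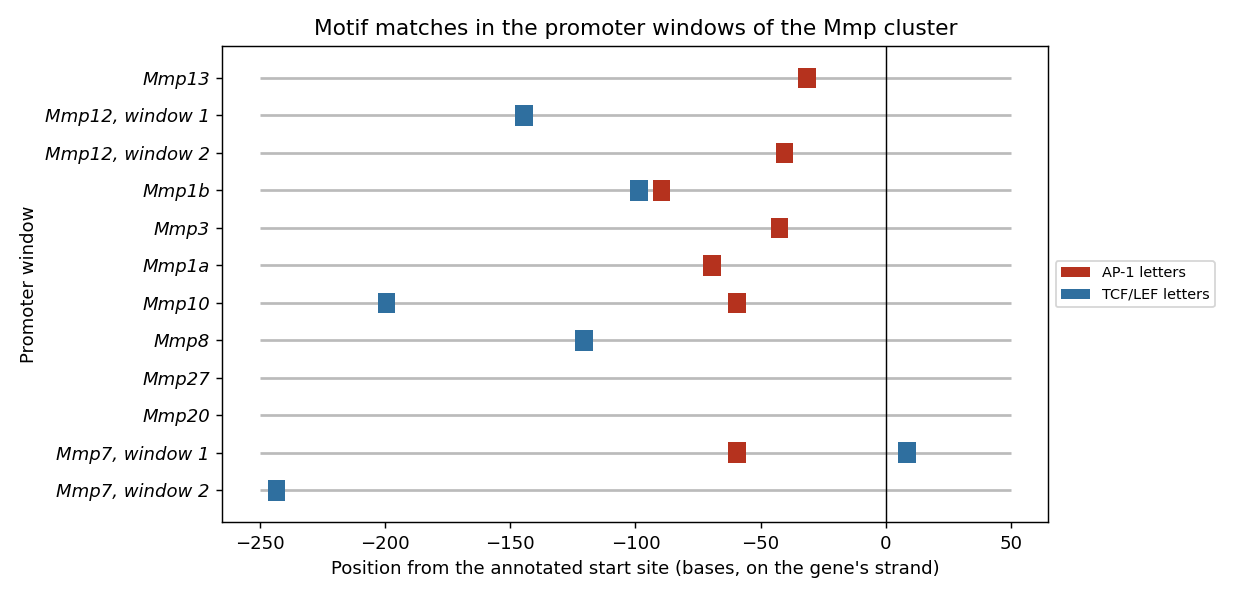
Positions of AP-1 letters (red) and TCF/LEF letters (blue) in the 12 promoter windows of the 10 cluster genes, in bases from the annotated start on each gene's strand, 1 row per window. The 7 AP-1 matches lie between 35 and 93 bases before the start, and the TCF/LEF matches are spread over the windows.

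Stromelysins cut proteoglycans, fibronectin and non-fibrillar collagens and can activate other Mmp proenzymes. Values below are given for replicates 0, 1 and 2 of each group in this order. Mmp3 stood at 2.31, 6.62 and 7.81 FPKM in controls and at 60.8, 192 and 22.0 FPKM in GOF (log2 fold change 4.08, SE 0.86, adjusted p = 0.0145, edgeR). For Mmp10 the values were 0.412, 0.542 and 0.869 FPKM in controls and 24.3, 65.0 and 10.7 FPKM in GOF (log2 fold change 5.81, SE 0.77, adjusted p = 0.00245). In both genes every GOF library was above every control, and GOF replicate 1 was the highest and GOF replicate 2 the lowest of its group. When GOF replicate 1 was left out, the log2 fold change came to 2.88 for Mmp3 (adjusted p = 0.0271) and to 4.83 for Mmp10 (adjusted p = 0.00277). Within the animals that gave both a control and a GOF culture, the log2 ratio of FPKM was 2.96 and 3.25 for Mmp3 and 4.81 and 4.70 for Mmp10. Together the stromelysins went from 2.73, 7.16 and 8.68 FPKM to 85.2, 257 and 32.7 FPKM, and Mmp3 from 0.844 ± 0.276% to 14.4 ± 9.72% of the summed Mmp FPKM.

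Collagenases, which make the first cut in fibrillar collagen, were lower in level than the stromelysins in GOF and none was called (edgeR, 0 of 2 tested, with 0 at an unadjusted p under 0.05, and 0 called by DESeq2 or limma). Mmp13 had 1.10, 2.59 and 3.72 FPKM in controls and 5.03, 13.1 and 2.27 FPKM in GOF (log2 fold change 1.54, SE 0.70, adjusted p = 0.163). Its groups overlapped, as GOF replicate 2 fell within the range of the controls. Mmp8, the neutrophil collagenase, stayed at or below 0.414 FPKM in every library, and Mmp1a and Mmp1b, which are paralogous genes, stayed at or below 0.288 FPKM. The 5 neutrophil markers, of which S100a9 had 0 fragments in every library, summed to 0.336, 0.2 and 0.195 FPKM in controls and 0.339, 0.399 and 0.515 FPKM in GOF, each GOF library above each control, and their part in the level of Mmp8 was not tested. The macrophage metalloelastase Mmp12 was at 0.0966, 2.27 and 1.74 FPKM in controls and at 2.43, 4.33 and 0.937 FPKM in GOF (log2 fold change 0.97, SE 0.90, adjusted p = 0.487). The lowest control and the lowest GOF library were again those of the animal shared by Control replicate 0 and GOF replicate 2. The 6 macrophage markers summed to 10.8, 19.4 and 19.0 FPKM in controls and 14.2, 24.9 and 8.6 FPKM in GOF. This sum, chiefly Lyz2, was lowest in the same libraries of each group, and Csf1r, Cd68 and Lyz2 exceeded 1 FPKM in at least some libraries. Not every marker had this order, as Csf1r was the lowest control in Control replicate 1 (1.05 FPKM) and Itgam the lowest GOF value in GOF replicate 0 (0.0494 FPKM). The part of these markers in the level of Mmp12 was not tested.

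Matrilysin, Mmp7, had 0 fragments in each control library and 7, 37 and 4 fragments in the GOF libraries. Against a floor of 3 fragments per library its mean was at least 5.22-fold higher in GOF. It was too low for the filter, and with no filter its adjusted p was 0.0174 (edgeR). At the far end of the same cluster as Mmp13, it was highest in GOF replicate 1 and lowest in GOF replicate 2 of the GOF libraries. The other genes of the cluster, except the adjacent Mmp20, had this order too. An antisense gene, AV064505, overlaps Mmp7 and had 0 fragments in all libraries. Mmp27, with 0.560 ± 0.243 FPKM in controls and 1.13 ± 0.529 FPKM in GOF, and Mmp20, with at most 1 fragment in any library, complete the cluster.

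The order GOF replicate 1, GOF replicate 0, GOF replicate 2 was found in 9 of the 10 cluster genes, the exception being Mmp20, and in all 6 that were tested, against 15.6% of all genes tested. This order was described above for Mmp3 and Mmp10, which are counted here, so the counts are a description and carry no test. Mmp1a had at most 5 fragments in any library, and Mmp12 on the opposite strand shares 10.8% of the exonic bases of Mmp1b. Control replicate 0 was the lowest control in the 6 cluster genes tested. Over all families, Control replicate 0 and GOF replicate 2, from the same animal, were both the lowest of their group in 18 of 39 members (46.2%) and in 11 of 16 Mmp genes (68.8%), against 18.8% of all genes tested.

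**Figure D3:**
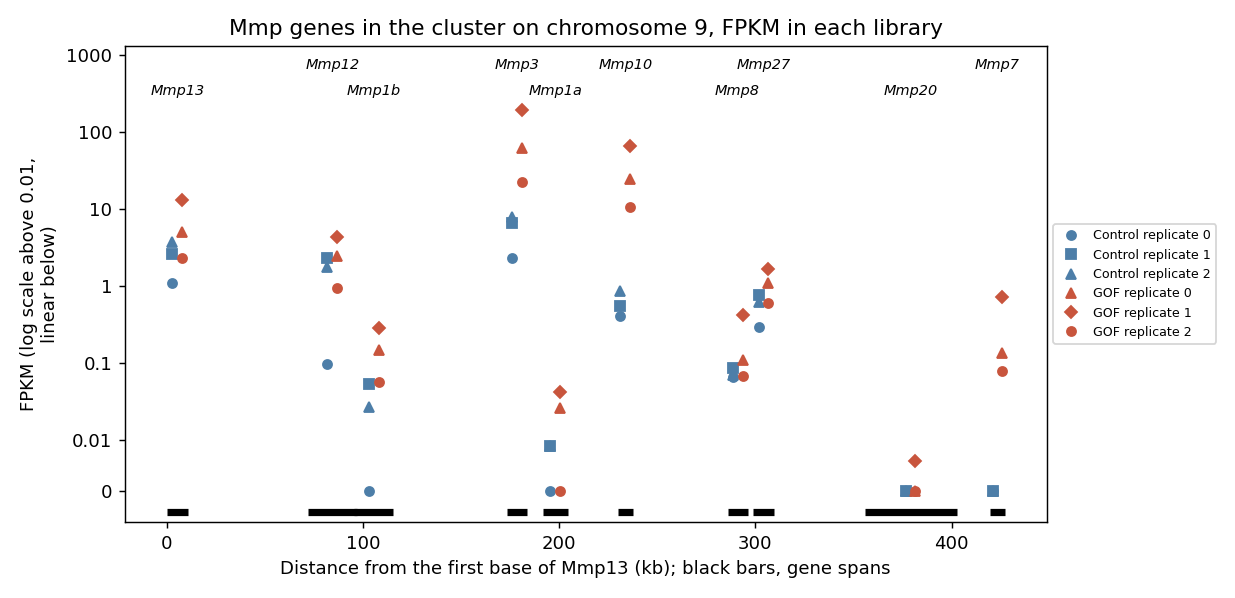
FPKM of the 10 Mmp genes of the chromosome 9 cluster in each of the 6 libraries (blue, controls; red, GOF; marker shapes, replicates, with circles and triangles for the animals shared by the groups) against distance from the first base of Mmp13 in kb. Mmp3 and Mmp10 are the genes tested in which every GOF library lies above every control, and GOF replicate 1 is the highest library of all 10 genes.

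Gelatinases cut denatured collagen and basement membrane collagen. Mmp2 was at 128, 249 and 300.2 FPKM in controls and at 136, 152 and 63.4 FPKM in GOF (log2 fold change -0.98, SE 0.38, adjusted p = 0.112). It was not called, and Control replicate 0 lay between GOF replicates 2 and 0. With the animal as a block the log2 fold change was -1.06 (adjusted p = 0.0045), and without Control replicate 0 it was -1.26 (adjusted p = 0.0381), so that under both settings Mmp2 was called lower. Mmp2 made up 35.1 ± 5.35% of the summed Mmp FPKM in controls and 21.5 ± 3.90% in GOF, and each GOF share was below each control share. Mmp9, the other gelatinase, did not exceed 0.356 FPKM in any library.

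Among the membrane-anchored enzymes, Mmp14, the activator of pro-Mmp2 at the cell surface, was the most abundant. It had 165, 244 and 264 FPKM in controls and 190.5, 193 and 154 FPKM in GOF (log2 fold change -0.36, SE 0.19, adjusted p = 0.222), and its groups overlapped. Mmp15 was called higher, from 0.541, 0.358 and 0.332 FPKM to 1.46, 0.619 and 2.41 FPKM (log2 fold change 1.86, SE 0.52, adjusted p = 0.0419). Its GOF libraries were in the reverse order of those of the stromelysins, with GOF replicate 2 the highest. The call of Mmp15 was lost on leaving out Control replicate 0, 1 or 2 or GOF replicate 0 or 2, with adjusted p of 0.0536, 0.123, 0.114, 0.103 and 0.0983 in turn and a log2 fold change of 1.24 in the last case, while within the shared animals its log2 ratio was 2.13 and 2.16. Mmp16 was 2.64 ± 0.529 FPKM in controls and 3.66 ± 0.620 FPKM in GOF (adjusted p = 0.231) without overlap between the groups, and Mmp24 stayed at or below 0.179 FPKM. Of the GPI-anchored enzymes, Mmp17 had 1.43, 1.24 and 1.04 FPKM in controls and 1.22, 0.879 and 1.18 FPKM in GOF, with overlapping groups (log2 fold change -0.23, adjusted p = 0.555).

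Mmp11, or stromelysin-3, which despite its name belongs to the furin-activated enzymes, led the remaining Mmp genes with 58.5, 91.6 and 112 FPKM in controls and 52.0, 73.1 and 32.7 FPKM in GOF (log2 fold change -0.77, SE 0.30, adjusted p = 0.109). Its groups overlapped. Mmp23, a membrane-linked Mmp, was lower in every GOF library, with 54.7 ± 8.68 FPKM in controls and 32.3 ± 2.77 FPKM in GOF (log2 fold change -0.81, adjusted p = 0.0106), and did not reach a fold change of 2. Its adjusted p was 0.053 without GOF replicate 0 and 0.0511 with the label number as a block. Mmp19 (16.4 ± 2.43 against 15.9 ± 6.71 FPKM) and Mmp28 (2.64 ± 0.249 against 2.25 ± 0.842 FPKM) had overlapping groups, and Tmem198b on the opposite strand shares 22.3% of the exonic bases of Mmp19. Of the 16 Mmp genes tested edgeR called 0 lower, against 5.64% of all genes tested. In that direction 3 had an unadjusted p under 0.05 (edgeR), and DESeq2 and limma also called 0.

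**Figure D4:**
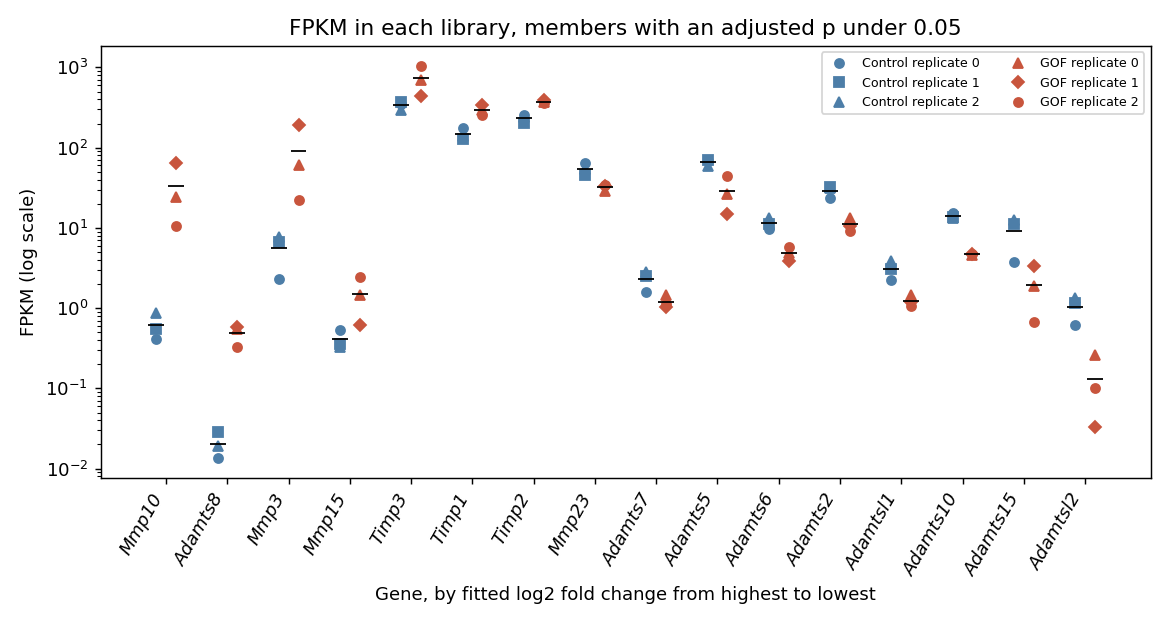
FPKM on a log scale in each library (blue, controls; red, GOF; marker shapes as in the key) of the 16 members with an adjusted p under 0.05, in the order of their fitted log2 fold change, with group means as black lines (n = 3). The groups do not overlap for any of these genes, and the GOF libraries of Mmp3, Mmp10, Mmp15, Adamts15 and Adamtsl2 are spread widely.

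Of the 15 Adamts genes tested, 6 were called lower and 1 higher, against 5.64% and 6.69% of all genes tested. Adamts2, which removes the N-propeptide of fibrillar procollagens, fell from 23.8, 32.1 and 31.6 FPKM to 13.3, 10.7 and 9.14 FPKM (log2 fold change -1.44, SE 0.18, adjusted p = 0.00215). Its highest GOF library was well below its lowest control. The other procollagen N-propeptidases, Adamts3 (at most 0.0894 FPKM in any library) and Adamts14 (0.625 ± 0.0781 FPKM in controls, 0.890 ± 0.384 FPKM in GOF, adjusted p = 0.326), were far lower in level.

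The proteoglycan-cleaving enzymes, known for cutting versican and aggrecan, moved in both directions. Adamts1, the most abundant, had 113, 128 and 108 FPKM in controls and 97.3, 90.8 and 66.0 FPKM in GOF (log2 fold change -0.46, SE 0.19, adjusted p = 0.121), with every GOF library below every control. Adamts5 fell from 69.1, 70.7 and 58.3 FPKM to 26.8, 14.9 and 43.8 FPKM (log2 fold change -1.25, SE 0.31, adjusted p = 0.0256). It lies beside Adamts1 on chromosome 16 (108.0 kb for the pair). GOF replicate 2 was the GOF library closest to the controls for Adamts5 and the farthest for Adamts1. Its fold change was under 2 with the animal as a block (log2 fold change -0.95, adjusted p = 0.00761) and on leaving out GOF replicate 1 (-0.98, adjusted p = 0.0344). Its adjusted p was 0.0698 when Control replicate 1 was left out and 0.0979 when GOF replicate 0 was.

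Adamts15 and Adamts8 share a stretch of 64.7 kb on chromosome 9 on opposite strands and changed in opposite directions. Adamts15 fell from 3.74, 11.2 and 12.6 FPKM to 1.87, 3.36 and 0.669 FPKM (log2 fold change -2.26, SE 0.62, adjusted p = 0.0373), with Control replicate 0 and GOF replicate 1 nearly touching. Its adjusted p was 0.0982, 0.0906, 0.127 and 0.0557 without Control replicate 1, Control replicate 2, GOF replicate 0 and GOF replicate 2 in turn, its log2 fold change was -2.87 without GOF replicate 1, and within the shared animals its log2 ratio was -2.75 and -2.48. Adamts8 rose from 0.0136, 0.0288 and 0.0189 FPKM, which are 2, 5 and 3 fragments, to 0.551, 0.590 and 0.326 FPKM, which are 88, 89 and 54 fragments (log2 fold change 4.44, SE 0.43, adjusted p = 0.000734). It remained under 1 FPKM in every library, and 10.6% of its exonic bases overlap an antisense gene, Gm29724. Adamts4, Adamts9 and Adamts20 were not called, at 4.48 ± 1.24, 14.3 ± 2.56 and 0.0637 ± 0.0681 FPKM in controls and 3.48 ± 1.01, 10.4 ± 2.02 and 0.152 ± 0.0393 FPKM in GOF.

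Adamts7 and Adamts12 are relatives that cut the cartilage protein Comp. Adamts7 fell from 1.60, 2.54 and 2.79 FPKM to 1.44, 1.04 and 1.13 FPKM (log2 fold change -1.04, SE 0.29, adjusted p = 0.0421), and its groups were separated by the small gap between Control replicate 0 and GOF replicate 0. Its call was lost with the animal as a block (-0.68, adjusted p = 0.0727) and on leaving out any library other than Control replicate 0, with adjusted p from 0.0599 (without GOF replicate 0) through 0.0843 (GOF replicate 2), 0.112 (GOF replicate 1) and 0.124 (Control replicate 2) to 0.132 (Control replicate 1). Adamts12 was at 14.8, 15.8 and 13.4 FPKM in controls and at 10.6, 6.53 and 19.8 FPKM in GOF, where GOF replicate 2 was the highest library of all (log2 fold change -0.29, adjusted p = 0.58).

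Of the remaining Adamts genes, Adamts10, which binds fibrillin microfibrils, fell from 15.2, 13.7 and 13.2 FPKM to 4.64, 4.74 and 4.75 FPKM (log2 fold change -1.77, SE 0.15, adjusted p = 0.000452). The GOF libraries of Adamts10 differed by less than the controls did. Adamts6, its close relative, fell from 9.69, 11.2 and 13.3 FPKM to 4.81, 3.90 and 5.77 FPKM (log2 fold change -1.25, SE 0.16, adjusted p = 0.00209). Adamts17 stood at 0.104 ± 0.0707 FPKM in controls and 0.229 ± 0.115 FPKM in GOF and was not called (adjusted p = 0.405). Adamts13, Adamts16, Adamts18 and Adamts19 did not exceed 0.0426 FPKM in any library.

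Adamtsl proteins have the ancillary domains of the Adamts enzymes without the protease. Adamtsl2, a fibrillin-binding protein, fell from 0.609, 1.16 and 1.34 FPKM to 0.258, 0.0333 and 0.0998 FPKM (log2 fold change -3.82, SE 0.51, adjusted p = 0.00252). These levels rest on 72, 223 and 198 fragments in controls and only 11, 6 and 18 in GOF. The log2 ratio of FPKM within the shared animals was smaller in size, at -2.38 and -2.61. Adamtsl1 fell from 2.23, 3.10 and 3.88 FPKM to 1.45, 1.21 and 1.07 FPKM (log2 fold change -1.76, SE 0.36, adjusted p = 0.0128). Both Adamtsl2 and Adamtsl1 had every GOF library below every control, and Adamtsl1 missed the adjusted p without GOF replicate 1 (0.0508). Adamtsl3 was also lower in each GOF library, with 2.63, 5.40 and 3.87 FPKM in controls and 0.574, 0.862 and 2.06 FPKM in GOF, and missed the threshold (log2 fold change -1.76, SE 0.55, adjusted p = 0.0571). DESeq2 called it (adjusted p = 0.00309), and so did edgeR when GOF replicate 2 was left out (log2 fold change -2.71, adjusted p = 0.00287). Adamtsl5, the most abundant, had 15.4, 12.9 and 13.1 FPKM in controls and 18.3, 14.7 and 18.6 FPKM in GOF with overlapping groups (log2 fold change 0.09, adjusted p = 0.76), and Adamtsl4 was 0.821 ± 0.0444 FPKM against 0.916 ± 0.350 FPKM. Of the 5 Adamtsl genes edgeR called 0 higher, against 6.69% of all genes tested. In that direction 0 had an unadjusted p under 0.05 (edgeR), and DESeq2 and limma also called 0.

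On the FPKM scale Timp3, Timp2 and Timp1 had the highest mean levels of all members in GOF, and all 3 were higher than in controls by the adjusted p. Timp3, the inhibitor that stays bound to the matrix and also blocks several Adam and Adamts enzymes, rose from 353, 366 and 296 FPKM to 702, 445 and 1055 FPKM (log2 fold change 1.10, SE 0.28, adjusted p = 0.0303). All GOF libraries were above all controls and GOF replicate 2 was the highest. Leaving out Control replicate 1, Control replicate 2, GOF replicate 0 or GOF replicate 2 gave adjusted p of 0.0793, 0.0946, 0.0889 and 0.0556, and the log2 ratio within the shared animals was 1.24 and 1.58. The 4 pericyte and smooth muscle markers summed to 2183, 1650.4 and 1568 FPKM in controls and 2054, 1804 and 3379 FPKM in GOF. This sum was chiefly Acta2 (3349.5 FPKM in GOF replicate 2) and was also highest in GOF replicate 2. Acta2 and Myh11 were each highest in that library, whereas Rgs5 was highest in Control replicate 0 and Cspg4 in Control replicate 2. The part of these markers in the level of Timp3 was not tested. Syn3 on the opposite strand shares 21.3% of the exonic bases of Timp3, and whether the counting used the strand is not stated in the sources used here. Timp1 was at 178, 128 and 139.9 FPKM in controls and at 295, 336 and 257 FPKM in GOF (log2 fold change 0.96, SE 0.16, adjusted p = 0.0063), just under a fold change of 2. Its fold change passed 2 without Control replicate 0 (log2 fold change 1.12) or without GOF replicate 2 (1.04). Timp2, which also takes part in the activation of pro-Mmp2, was at 257, 201 and 244 FPKM in controls and at 374, 389.8 and 363 FPKM in GOF (log2 fold change 0.58, SE 0.15, adjusted p = 0.0338). Its adjusted p was 0.0504 with the animal as a block, 0.153 with the label number as a block and 0.0583 with library totals. Leaving out Control replicate 0, 1 or 2 or GOF replicate 0 or 1 gave 0.0571, 0.132, 0.0588, 0.119 and 0.0899 in turn, and of the 6 fits with 1 library left out only that without GOF replicate 2 kept an adjusted p under 0.05 (0.026). Timp4 did not exceed 0.0833 FPKM in any library.

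In sums over each family, the Timp genes went from 787, 695 and 681 FPKM in controls to 1371, 1171 and 1674 FPKM in GOF, and the Adamts genes from 266, 307 and 276 FPKM to 179, 149.7 and 166 FPKM. Neither sum overlapped between the groups. The Mmp sum was 440.4, 667 and 771 FPKM in controls and 524, 761 and 342 FPKM in GOF, and these ranges overlapped. The Adamtsl sum, most of which came from Adamtsl5, was 21.7, 23.3 and 23.0 FPKM in controls and 21.8, 17.4 and 22.9 FPKM in GOF, and overlapped as well. The ratio of summed Mmp to summed Timp FPKM was 0.56, 0.96 and 1.13 in controls and 0.383, 0.65 and 0.204 in GOF. GOF replicate 1, the highest in its group, exceeded Control replicate 0, so this ratio overlapped between the groups as well.

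**Figure D5:**
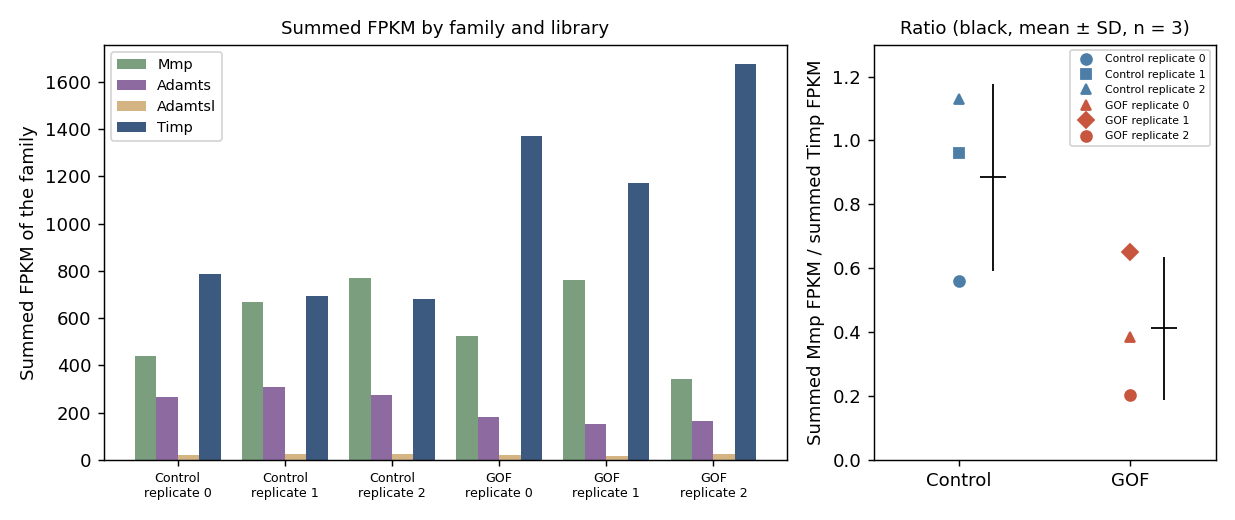
Left, summed FPKM of the Mmp, Adamts, Adamtsl and Timp genes in each library; right, ratio of summed Mmp to summed Timp FPKM per library with mean ± SD (n = 3). The Timp sums of the GOF libraries lie above and the Adamts sums below those of all controls, while the Mmp and Adamtsl sums and the ratios overlap.

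Lists of related genes were read in the same fit, and the counts in each are to be set against the 6.69% of all genes called higher and the 5.64% called lower. Of 19 tested regulators of these proteases (plasminogen system, proprotein convertases, receptors and inhibitors), 4 were called higher and 1 lower, with a median log2 fold change of 0.39. Cd44, a hyaluronan receptor that can hold Mmp proteins at the cell surface, rose from 70.3 ± 1.73 to 185 ± 1.31 FPKM (log2 fold change 1.39, adjusted p = 0.000452). The urokinase receptor Plaur rose from 8.57 ± 1.84 to 31.8 ± 3.54 FPKM (log2 fold change 1.85, adjusted p = 0.00122). Spock1 was also called higher at a low level, 0.0474 ± 0.0144 FPKM in controls and 0.131 ± 0.0342 FPKM in GOF (log2 fold change 1.42, adjusted p = 0.0363). The gene called lower was Reck, a membrane-bound inhibitor of Mmp enzymes (10.4 ± 2.81 to 4.90 ± 0.675 FPKM, adjusted p = 0.0121). Spock1 and Reck were named after their values were seen.

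Of 16 tested genes from other metalloproteinase families of the surface and matrix, whether or not the protein is an active protease, 4 were called lower (median log2 fold change -0.21 against -0.02). They were the IGF-binding protein proteases Pappa2 (log2 fold change -3.74) and Pappa (-1.36), and Adam23 (-1.53) and Adam12 (-1.41), the last named after its value was seen. None of the 16 was called higher by edgeR, DESeq2 or limma (0, with 1 at an unadjusted p under 0.05 in edgeR). Of 9 other matrix-degrading proteases (median 0.36), the serine protease Dpp4 rose from 0.547 ± 0.104 to 25.8 ± 8.24 FPKM (log2 fold change 5.77, adjusted p = 0.000226) and Htra3 fell from 5.50 ± 0.718 to 1.53 ± 0.229 FPKM (-1.85, adjusted p = 0.00231). Among 6 tested substrates and partners (median -0.17), versican (Vcan), a substrate of Adamts enzymes, fell from 43.7 ± 4.30 to 17.7 ± 5.16 FPKM (log2 fold change -1.26, adjusted p = 0.00446) and fibrillin 1 (Fbn1), a partner of Adamts10 and Adamtsl proteins, from 209 ± 98.8 to 75.1 ± 22.7 FPKM (-1.51, adjusted p = 0.0386). In this list edgeR called 0 higher, with 1 at an unadjusted p under 0.05, limma called 0 and DESeq2 called 1, Ltbp1. Of the 7 AP-1 genes (median -0.12), Fosl1 rose from 0.969 ± 0.190 to 3.68 ± 0.705 FPKM (log2 fold change 1.88, adjusted p = 0.00181) and Fos fell from 10.6 ± 0.944 to 4.58 ± 0.590 FPKM (-1.14, adjusted p = 0.00362). An unadjusted p under 0.05 (edgeR) was reached by 2 of the 7 in the higher and 3 in the lower direction, and DESeq2 called 1 higher and 2 lower.

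On FPKM alone, an exact two-sided permutation test over 3 against 3 libraries cannot give a p below 0.1, so that the adjusted p above come from the model fitted over all genes.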

How the data were processed

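RNA from 6 dermal fibroblast cultures was sequenced as stranded, paired-end libraries. Mapping to mm10 by TopHat and quantification by Cuffdiff were the authors', with versions not given in the sources used here. Estimated counts were deposited unscaled, as the fragments that Cuffdiff attributed to a gene in a given library. FPKM values were deposited after Cuffdiff scaled fragments by transcript length and between libraries, so a ratio of FPKM can differ from a fold change fitted on fragments. A further 6 columns of per-library values, among them all those of the table of lncRNAs, were not used.

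Symbols and positions came from GENCODE M21 (GRCm38, the assembly mm10), which held 97.9% of the 41126 identifiers. Fragments were rounded (4.95% of values were not whole), and 32 genes with a failed estimate in any library, no member among them, were left out. Groups were compared in R 4.3.3 with edgeR 4.0.16 (TMM factors 0.964 to 1.05, filterByExpr, quasi-likelihood test, Benjamini-Hochberg adjustment over 15462 genes). The script was tested on simulated data. Alternatives were DESeq2 1.42.0, library totals, no filter, a minimum FPKM of 1 in 3 libraries, limma 3.58.1 on log2(FPKM + 1) and log2(FPKM + 0.1), a replicate block (by label number, then by animal) and leaving out every library once. Figures were drawn with matplotlib 3.10.9.

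Cultures of the same animal deviated together from their group means (r = 0.408 and 0.46 across genes, which are not independent replicates), and the pairing by animal comes from the numbers in the sample titles. In the fit with the animal as a block, 2 of the 4 animals hold both groups and 1 residual degree of freedom is left. P-values measure the spread between these cultures. Counting error is not separated from it.

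The members and lists were chosen with earlier results of these data known. Per-library values are given for called members, for the member of each class with the highest mean FPKM, for Mmp10, and for members called only with the animal block, DESeq2 or log2(FPKM + 1). From each list, at most 3 called genes are named, in order of adjusted p, and 1 gene that this would name is not reported here. Promoter windows are from RefSeq (GRCm38.p6), which shares coordinates with mm10. Folds against a group with no more than 3 fragments per library are lower bounds.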

Additional observations from a re-analysis of the deposited data

How the results depend on the processing

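Of the log2 fold changes of single members recomputed under the alternatives, 472 kept their direction and their call or lack of one, 39 lost a call, 12 gained one and 12 changed sign. Mmp3, Mmp10, Adamts2, Adamts6 and Adamts10 were called under every alternative in which they were tested. Adamts8 and Adamtsl2 lost their fold of 2 only with limma on log2(FPKM + 1), where the pseudocount exceeds most of their values. Called members numbered 5 higher and 8 lower. Members called higher were 3 with a minimum FPKM of 1, under which Mmp15 and Adamts8 were not tested, 2 with limma on log2(FPKM + 1), 3 with a replicate block by label number, and 3 to 5 with 1 library left out (3 without Control replicate 1, Control replicate 2 or GOF replicate 0). Members called lower were 5 with limma on log2(FPKM + 1) and 5 to 9 with 1 library left out (5 without Control replicate 1, GOF replicate 0 or GOF replicate 1). Over all genes, 1906 were called, 855 with limma on log2(FPKM + 1) and 1311 to 1961 with 1 library left out. With the animal as a block, 5 members were called higher and 7 lower, and the calls that changed are given beside Mmp2, Adamts5 and Adamts7. Same-numbered libraries were not paired by number (r = -0.41, 0.0539 and -0.441 across genes). The cause of these changes was not tested.

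Log2 fold changes near 0 changed sign: Mmp17 to 0.00 and Adamts12 to 0.02 with the animal block, Mmp19 to 0.04, 0.00 and 0.20 without Control replicate 2, GOF replicate 0 and GOF replicate 2, Mmp24 to -0.28 and -0.01 without Control replicate 0 and GOF replicate 1, Adamts3 to 0.27, 0.01 and 0.15 without Control replicate 1, GOF replicate 0 and GOF replicate 2, Adamts12 to 0.00 without GOF replicate 1 and Adamtsl5 to -0.05 without GOF replicate 2. With 1 library left out, Mmp19 ranged from -0.43 to 0.20, Mmp24 from -0.28 to 0.31, Adamts3 from -0.61 to 0.27, Adamts12 from -0.77 to 0.00 and Adamtsl5 from -0.05 to 0.25. The median over members was 0.00 with the animal block and from -0.20 to 0.02 (without Control replicate 1) with 1 library left out. The 12 members too low for the filter have no test in the fit that gave the calls, and the values of Adamts8 rest on 2 to 89 fragments per library.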
